A study of Mus musculus with 2 samples.

Results

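Somatostatin and 4 of its receptors were followed through single cells of the mouse small intestine. The set holds the ligand gene Sst and the receptor genes Sstr1, Sstr2, Sstr3 and Sstr5, taken by symbol, and these are 5 of the 32285 genes measured. Cells that had passed through a Neurog3-expressing state were marked by the red reporter Tomato, sorted, and profiled with droplet-based 3′ RNA-Seq in 2 libraries. The library labelled WT came from Neurog3Cre; Rosa26tdtomato mice. The NFKO-labelled library came from Neurog3Cre-FoxO1 f/f; Rosa26tdtomato mice, in which the Cre is meant to delete the transcription factor gene FoxO1. Both carried the reporter and the Cre, which is driven by Neurog3 and so acts in the endocrine lineage and other descendants of Neurog3-positive cells, all mice were 4 to 6 weeks old, and each library pooled the whole small intestine of 4 to 5 animals. With 1 library per genotype there was no replicate, so no test of genotype was possible. All intervals below are 95% intervals that cover counting error alone.

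Somatostatin is an inhibitory peptide of the gut, made by D cells, one of the rarer types of enteroendocrine cell (EEC). It acts over short distances on neighbouring endocrine cells through G protein-coupled receptors that couple to Gi/o, lower cAMP and reduce hormone release. The receptors differ in which cells carry them, so the transcripts of ligand and receptors together show which endocrine cells could send and which could receive the signal. Transcripts do not show peptide, receptor protein or secretion.

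All 5 genes are protein coding, and their positions are those of GENCODE M21 on GRCm38 (mm10), the build of the deposited files. Sst lies on the minus strand at chr16:23889573-23890958 and is split into 2 exons. Sstr1 lies at chr12:58211772-58214444 on the plus strand, Sstr3 at chr15:78537008-78544685 and Sstr5 at chr17:25489875-25497288, both on the minus strand. Sstr2 lies on the plus strand at chr11:113619342-113626028, inside the span of Slc39a11, which is transcribed from the other strand. The stretch below is shown because it encodes the secreted hormone. It comprises the last 28 codons of the Sst reading frame, in exon 2 at chr16:23889732-23889815, read 5′ to 3′ on the minus strand, and the capitals mark the final 14 codons, those of somatostatin-14. All 28 codons together encode somatostatin-28, the longer form that the intestinal mucosa mainly releases.
Sst hormone codons: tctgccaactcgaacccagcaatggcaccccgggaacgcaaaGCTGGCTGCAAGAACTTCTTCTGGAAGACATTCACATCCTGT

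The Sst promoter is shown because it is the textbook example of a promoter that responds to cAMP, the messenger that the receptors lower. RefSeq promoter windows, 250 bases before to 50 bases after a transcript start on GRCm38.p6, were matched by symbol for 3 of the 5 genes (Sst, Sstr2 and Sstr3). The capitals mark TGACGTCA, the palindromic cAMP response element, which reads the same on both strands. It was found in the windows of Sst, starting 48 bases before the transcript start, and of Sstr2, starting 58 bases before it, and it was present in 1.79% of 32851 promoter windows. A match is a description of the sequence and not evidence of binding in these cells.
Sst promoter, chr16:23890795-23891094, minus strand: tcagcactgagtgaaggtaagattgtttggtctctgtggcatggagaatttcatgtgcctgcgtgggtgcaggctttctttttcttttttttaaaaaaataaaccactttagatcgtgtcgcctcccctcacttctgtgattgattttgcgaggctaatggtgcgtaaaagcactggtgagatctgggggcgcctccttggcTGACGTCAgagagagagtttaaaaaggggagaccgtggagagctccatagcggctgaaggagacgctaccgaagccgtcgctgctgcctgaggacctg

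After filters on low-quality droplets and doublets, 3003 WT cells and 5292 cells of the NFKO-labelled library remained, with medians of 16883 and 17035 unique molecules (UMIs) per cell. Clustering was run without the 5 genes and gave 23 clusters. Of these, 10 carried 8 to 12 of 14 endocrine markers and are called EEC-like, with 1038 and 2017 cells. The targeted gene did not separate the libraries: Foxo1 was at 11.5 CPM (counts per 1000000 UMIs) in WT and 12.4 CPM in the NFKO-labelled library, a ratio of 1.07 (0.987 to 1.17), and in EEC-like cells the ratio was 0.825 (0.719 to 0.948). Reads of the 3′ end need not fall in the deleted part, so this does not check the deletion, and the genotype stands here as labelled. Sex-linked transcripts typed 2424 WT cells as male and 6 as female, against 357 and 4357 cells of the NFKO-labelled library, so in most cells sex and genotype cannot be told apart. The libraries shared 4 cell barcodes among the cells kept.

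Sst was made almost entirely by a small group of EEC-like cells. Only 473 of the 52915 Sst UMIs of the WT library lay outside EEC-like cells, and 17519 of the 350133 Sst UMIs of the NFKO-labelled library. A cell was called Sst-leading if Sst was the most abundant of 7 peptide hormone transcripts (Gip, Gcg, Pyy, Cck, Nts, Sst and Ghrl) and made up at least 1% of its UMIs. By this rule 39 of 1038 EEC-like cells were Sst-leading in WT, or 3.76% (2.69% to 5.10%), and 94 of 2017 in the NFKO-labelled library, or 4.66% (3.78% to 5.67%). These cells held 99.6% and 97.1% of the Sst UMIs of all EEC-like cells. The line between Sst-leading and other cells fell where few cells lay. Only 1 WT cell and 5 cells labelled NFKO had Sst between 0.5% and 1% of their UMIs, and 3 and 2 Sst-leading cells were between 1% and 2%.

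Within an Sst-leading cell, Sst took a large part of all transcripts. In WT the Sst share of a cell's UMIs ran from 1.03% through a median of 10.1% to a maximum of 32.0%. In the NFKO-labelled library it ran from 1.18% through a median of 23.0% to 36.3%. The ranges overlapped over nearly their whole length, while the medians stood apart. The WT cells were also shallower, with a median of 7013 UMIs against 16434. Among cells of at least 5000 UMIs, 23 in WT and 90 in the NFKO-labelled library, the medians were 16.5% and 23.3%. The part that depth has in the difference was not tested further.

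**Figure D1:**
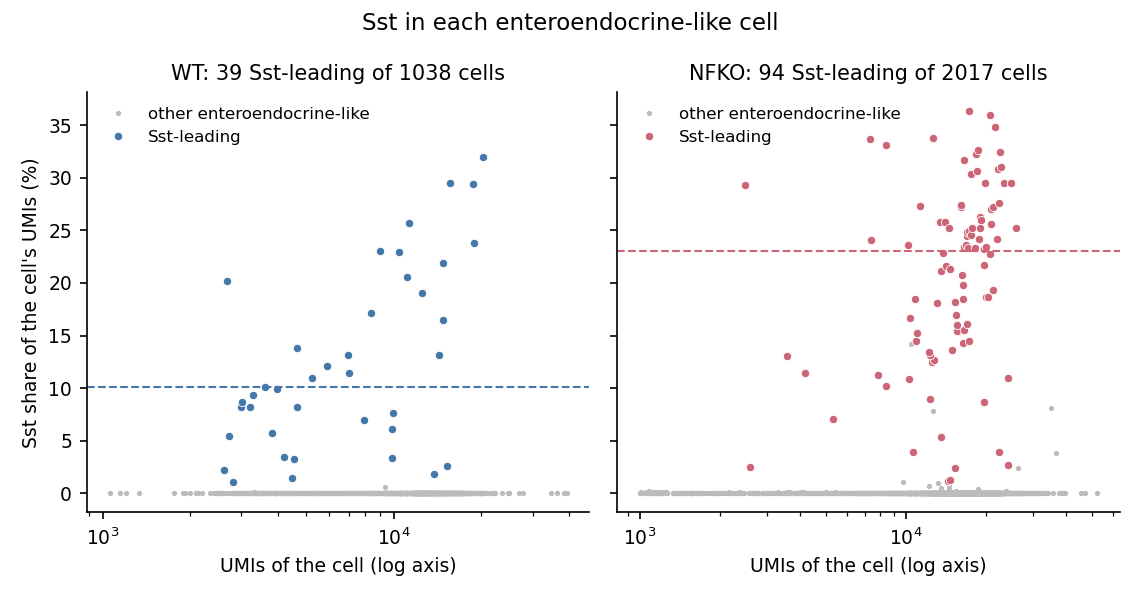
Each point is an EEC-like cell, with its total UMIs on a log axis and the Sst share of those UMIs in percent; coloured points are Sst-leading cells and the dashed line is their median, 10.1% in WT and 23.0% in the NFKO-labelled library. The coloured cells lie above a floor of cells with little or no Sst. In the NFKO-labelled library, 6 cells led by another hormone also hold Sst at 1% or more of their UMIs and lie above this floor. Of the coloured cells, 16 of the 39 in WT but 4 of the 94 labelled NFKO lie below 5000 UMIs.

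The Sst-leading cells carried the markers of D cells. Hhex, a transcription factor required by pancreatic D cells, was at 848 CPM in WT and 890 CPM in the NFKO-labelled library, with a UMI in 37 of 39 and 93 of 94 cells. In the other EEC-like cells it was at 7.62 and 18.4 CPM. Glp1r, the receptor for GLP-1, was at 164 and 301 CPM against 5.91 and 25.2 CPM, and Pdx1, a factor of duodenal and pancreatic endocrine cells, at 106 and 193 CPM against 12.3 and 33.8 CPM. One cluster, found without using Sst, held nearly all of these cells: all 36 of its WT cells and 92 of its 113 cells labelled NFKO were Sst-leading. Of the 21 others in it, 15 had Gip as their leading hormone.

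Genes at no less than 50 CPM in the Sst-leading cells were ranked by the smaller of their ratios over the other EEC-like cells in the 2 libraries. The 10 genes most concentrated in Sst-leading cells were Kcnk2, Iapp, Fam151a, Asic5, Hhex, Mylk, Arg1, Rai14, Glp1r and Th. These include a potassium channel (Kcnk2), the islet amyloid peptide (Iapp), a member of the acid-sensing channel family (Asic5), arginase (Arg1) and tyrosine hydroxylase (Th). Kcnk2 was at 137 and 147 CPM, against 0.538 and 0.323 CPM in the other EEC-like cells. Asic5 was at 510 CPM in WT and 2195 CPM in the NFKO-labelled library, against 8.60 and 30.5 CPM. Iapp was at 3354 and 11278 CPM, against 11.3 and 55.9 CPM. The 7 pancreatic markers examined were Ins1, Ins2, Ppy, Cela1, Cpa1, Prss2 and Ctrb1. Their summed level in EEC-like cells was 41.9 CPM in WT and 119 CPM in the NFKO-labelled library. Ppy was also a leading gene of the EEC-like cluster led by Pyy, so the sum is not specific to pancreas. Ins1, Cpa1 and Prss2 had no UMI in either, and Ins2 none in WT. The part of these 7 markers in the values given here was not tested. Arg1 (289 and 314 CPM) and Th (188 and 195 CPM) stood at nearly the same level in the Sst-leading cells of both libraries.

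Many Sst-leading cells held a second hormone. Ghrl, which encodes ghrelin, made up at least 1% of UMIs in 8 of 39 cells in WT and 67 of 94 in the NFKO-labelled library, and Gip in 5 and 23. Summed over the cells, Ghrl was at 8419 and 33974 CPM. Cck (155 and 222 CPM), Gcg (27.3 and 49.5 CPM) and Tph1 (0 and 23.4 CPM) were each under 5% of their level in the other EEC-like cells. Conversely, Sst reached 1% of UMIs in no WT cell led by another hormone but in 6 such cells labelled NFKO, of which 4 were led by Gip, 1 by Cck and 1 by Ghrl. All 6 had between 4 and 24 Hhex UMIs. Pcsk2, which encodes a prohormone convertase and was picked out after its values were seen, had no UMI in the 39 WT cells and 122 UMIs in the NFKO-labelled library. These lay in 5 of the 94 cells, with 71 in a single cell.

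Over all EEC-like cells Sst was at 4564 CPM in WT and 11316 CPM in the NFKO-labelled library, a ratio of 2.48 (2.46 to 2.50). This ratio combines several quantities that moved by smaller amounts. The share of Sst-leading cells among EEC-like cells had a ratio of 1.24 (0.845 to 1.85), an interval that includes 1. Among cells of at least 5000 UMIs, a limit set after the data were seen, the shares were 2.72% of 845 and 4.96% of 1816 cells, and the ratio of 1.82 (1.14 to 3.02) had an interval above 1. Whether D cells were more frequent thus depended on how shallow cells were treated. The summed Sst share of the UMIs of Sst-leading cells was 15.9% in WT and 21.6% in the NFKO-labelled library, a ratio of 1.36 (1.35 to 1.37), and 1.23 (1.22 to 1.24) among cells of at least 5000 UMIs. The Sst-leading cells also took a larger share of all EEC-like UMIs, 5.08% against 2.86%. The WT total came largely from few cells, and leaving out the 3 cells with most Sst in each library moved the ratio to 3.38.

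The Sst ratio was not stable in cells of 1 sex. Among male-typed EEC-like cells, 826 in WT and 131 in the NFKO-labelled library, it was 3.06 (3.01 to 3.10), with 30 and 8 Sst-leading cells. When 2 Y-linked UMIs were asked for in place of 1, 564 and 105 cells remained, with 19 and 2 Sst-leading cells, and the ratio was 1.06. In that second set the Sst UMIs of the NFKO-labelled library came mainly from 1 cell. The ratio of the shares of Sst-leading cells was 1.68 in the first set and 0.565 in the second.

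Outside the EEC-like cells, WT cells had traces of Sst and the NFKO-labelled library had more. WT classes were between 5.73 CPM in Paneth-like and 12.0 CPM in tuft-like cells, and cluster 14, shallow cells led by the lymphocyte genes Gzma, Ccl5 and Cd3g, was at 27.6 CPM from 5 UMIs. In the NFKO-labelled library goblet-like cells were at 51.8 CPM, Paneth-like at 248 CPM, cycling-like at 345 CPM, stem-like at 687 CPM and cluster 14 at 1511 CPM. A few droplets carried much of this: the 3 cells with most Sst held 80.5% of the Sst UMIs of Paneth-like, 90.5% of cycling-like and 93.3% of stem-like cells. Without them the named classes were between 33.2 and 50.8 CPM in the NFKO-labelled library and between 5.36 and 6.56 CPM in WT, while cluster 14 remained at 1013 CPM against 12.1 CPM.

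**Figure D2:**
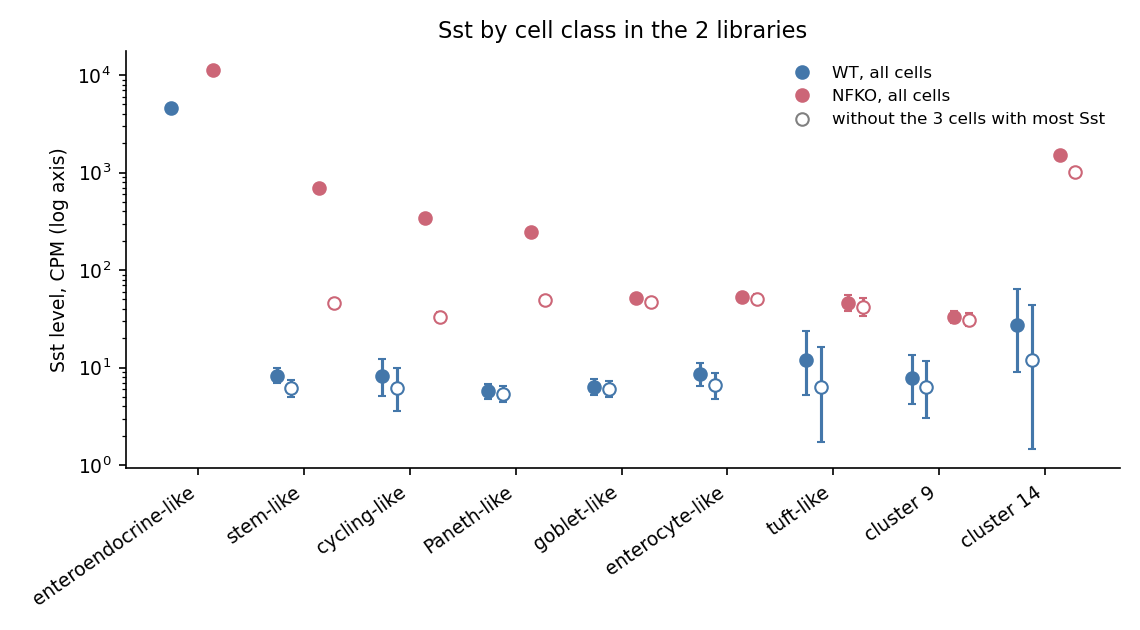
Sst level in CPM on a log axis for each cell class, with 95% counting intervals; filled points hold all cells of a class and open points leave out the 3 cells with most Sst, a step not applied to EEC-like cells. Open points lie near 6 CPM in WT and mostly between 31.1 and 50.8 CPM in the NFKO-labelled library, with cluster 14 apart at 1013 CPM.

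This floor bears on which cells can be said to make Sst. After each cell was thinned to 5000 UMIs, a Sst UMI was found in 3.34% of 778 goblet-like WT cells and 24.2% of 1287 goblet-like cells labelled NFKO, whose classes had median depths of 24212 and 21729 UMIs. The same share in EEC-like cells was 7.69% of 845 and 31.6% of 1816. The goblet-like share stands beside it for comparison, and whether background was the same in every class was not tested. Unthinned, the goblet-like shares were 13.5% and 57.8%, and the EEC-like shares 14.9% and 57.7%. Other hormones had such a floor too: the level of Gip outside EEC-like cells was 0.229% of that inside them in WT and 1.11% in the NFKO-labelled library, and for Sst 0.155% and 1.88%. Sst reached 1% of UMIs in no WT cell outside the EEC-like class and in 17 cells labelled NFKO, of which 10 were in cluster 14, 4 were stem-like, and Paneth-like, cycling-like and goblet-like cells had 1 each. Of the 10 in cluster 14, with 1182 to 5678 UMIs in all, only 1 had a Hhex UMI. The Paneth-like and the cycling-like cell were deep, with 76887 and 68120 UMIs, and had 7 and 24 Hhex UMIs. Whether these droplets held free RNA, 2 cells or 1 Sst-making cell was not tested.

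The receptor genes were EEC genes with 1 exception. Sstr1 was at 30.5 CPM in EEC-like WT cells and 0.239 CPM in all other WT cells, 128-fold apart (77.6 to 226), and in the NFKO-labelled library the difference was 98.7-fold (74.3 to 134). Sstr5 was 137-fold (82.2 to 248) and 66.3-fold (48.5 to 93.0) higher in EEC-like cells, and Sstr3 34.2-fold (20.01 to 62.3) and 31.2-fold (21.8 to 46.0). Sstr2 was only 3.01-fold (1.87 to 4.76) and 3.62-fold (2.80 to 4.70) higher. The related receptor gene Sstr4 had no UMI in either library, and Cort, which encodes the relative cortistatin, had 1 UMI in each.

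Goblet-like cells held much of the Sstr2. They had 45 Sstr2 UMIs in WT, 2.37 CPM (1.73 to 3.18), and 68 in the NFKO-labelled library, 2.22 CPM (1.72 to 2.81), so the ratio of 0.934 (0.632 to 1.39) showed no detectable difference. These were 51.1% and 27.4% of all Sstr2 UMIs of the libraries. Against the remaining non-endocrine cells the level was 8.76-fold (4.65 to 17.7) and 2.85-fold (1.90 to 4.33) higher. The 3 goblet-like clusters lay between 2.04 and 2.75 CPM in both libraries, from 1 to 42 UMIs each, which is too few to compare them. At 5000 UMIs per cell, 12 of 778 and 16 of 1287 goblet-like cells had a Sstr2 UMI.

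The receptors were then compared over hormone subtypes, assigned to each EEC-like cell by its leading peptide hormone. Cells with no leading peptide were called enterochromaffin if they had Tph1, which encodes the enzyme of serotonin synthesis, and were split by Tac1, which encodes substance P. Of the rest, cells with Neurog3 were set apart as progenitors. No receptor took part in this assignment.

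Sstr1 was highest in serotonin-making cells low in Tac1. Its level in Tac1-low enterochromaffin cells was 285.5 CPM (207 to 383) in WT, where only 16 such cells were found, and 284.8 CPM (262 to 309) in the 202 cells labelled NFKO. In the NFKO-labelled library the next levels were 131 CPM (119 to 144) in Tac1-positive enterochromaffin cells, 99.5 CPM (86.1 to 114) in Nts-leading cells and 58.9 CPM (47.2 to 72.5) in Sst-leading cells, followed by Pyy-leading cells at 56.6 CPM and Cck-leading cells at 28.4 CPM. The interval of the ratio between neighbours excluded 1 at each of these steps except that from Sst-leading to Pyy-leading cells. In WT, where only subtypes of at least 20 cells were put in order, Sst-leading (76.0 CPM), Tac1-positive enterochromaffin (65.9 CPM), Nts-leading (52.0 CPM) and Pyy-leading cells (50.4 CPM) could not be told apart by neighbours, and all lay above Gip-leading cells at 18.7 CPM. Gcg-leading cells were lowest in both libraries, at 2.86 CPM (0.779 to 7.32) from 4 UMIs and 6.74 CPM (3.23 to 12.4) from 10 UMIs. In the NFKO-labelled library they could not be told apart from Neurog3-positive cells at 7.41 CPM, with a ratio of 1.10 (0.499 to 2.60) between them.

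Sstr5 was high in the cells led by Nts, Pyy, Cck and Gcg, of which Nts, Pyy and Gcg encode hormones typical of the lower gut. It was highest in Nts-leading (79.0 and 71.2 CPM) and Pyy-leading cells (73.3 and 85.5 CPM), followed by Cck-leading (56.2 and 55.8 CPM) and Gcg-leading cells (48.6 and 57.3 CPM). Neighbours among these 4 subtypes did not differ beyond their intervals in either library. Ghrl-leading cells were at 38.2 and 29.4 CPM, and Tac1-low enterochromaffin cells at 32.4 CPM from 5 UMIs and 31.4 CPM. In WT, Gcg-leading cells could not be told apart from Ghrl-leading cells (1.27, 0.852 to 1.92), and the first clear step lay below the latter (2.13, 1.26 to 3.65). In the NFKO-labelled library it lay below Cck-leading cells (1.78, 1.34 to 2.39). Gcg-leading cells, the lowest for Sstr1, had a Sstr5 UMI in 51 of 103 cells in WT and 49 of 90 in the NFKO-labelled library. Gip-leading cells were at 16.98 and 19.9 CPM. Neurog3-positive cells (6.27 and 13.1 CPM) and Sst-leading cells (6.08 and 10.7 CPM) were at the bottom in both libraries, the last with 2 and 16 UMIs.

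Sstr3 was spread over most subtypes. In WT its levels ran from 2.16 CPM in cells with no leading hormone to 19.3 CPM in Nts-leading cells, and no pair of neighbours differed beyond its interval. The Nts-leading value was 4.47 CPM without doublet removal, when the Nts-led cluster was no longer EEC-like. In the NFKO-labelled library Pyy-leading cells were highest at 36.1 CPM (24.4 to 51.6), and Gip-leading cells followed at 19.3 CPM (16.1 to 23.0) and held 33.7% of the EEC-like Sstr3 UMIs. Neurog3-positive cells and cells with no leading hormone were at 4.38 and 2.64 CPM there.

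**Figure D3:**
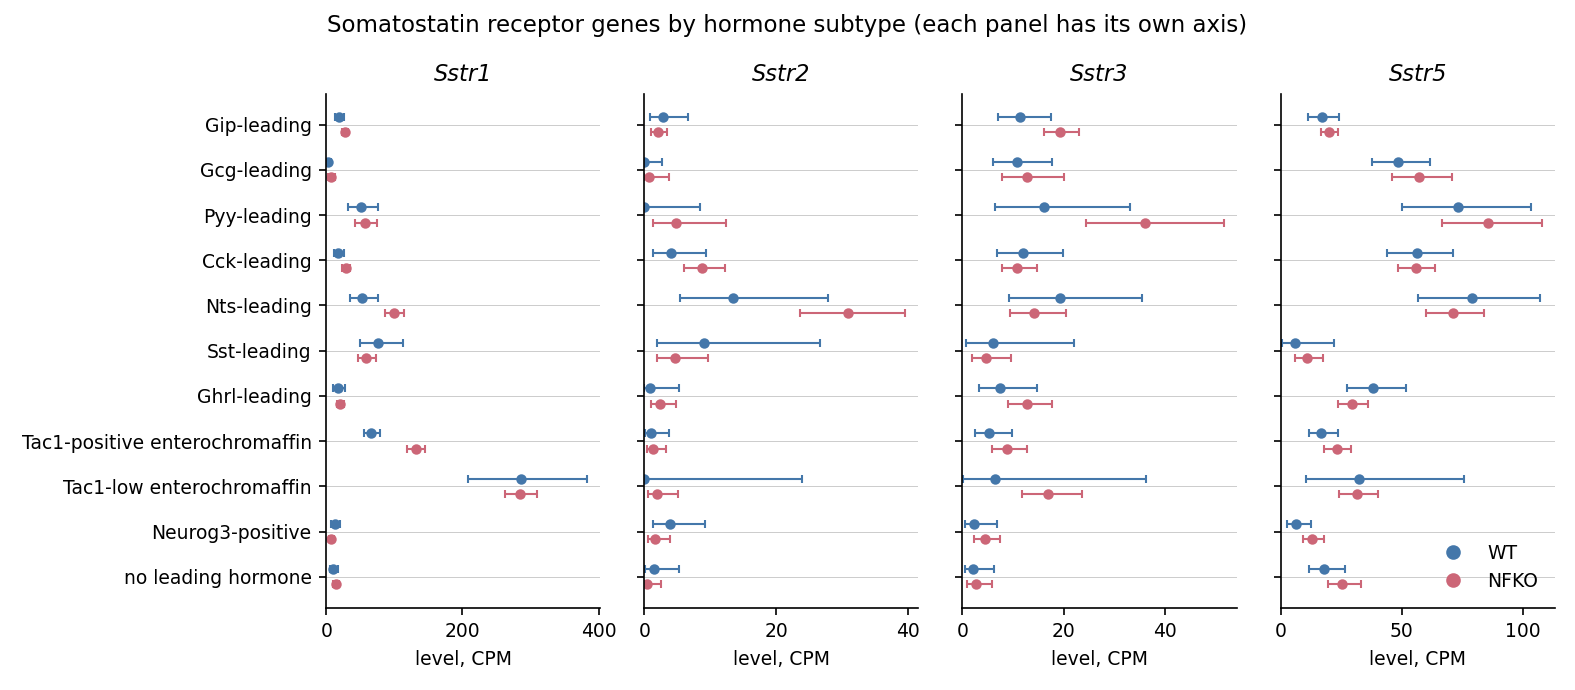
Level of each receptor gene in CPM by hormone subtype in both libraries, with 95% counting intervals; each panel has its own axis from 0. Sstr1 peaks near 285 CPM in Tac1-low enterochromaffin cells, Sstr5 is highest in Pyy-leading and Nts-leading cells, Sstr2 in Nts-leading cells, and the Sst-leading cells are low for Sstr5.

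Among EEC-like cells Sstr2 was highest in those led by Nts. Nts-leading cells were highest at 13.5 CPM (5.42 to 27.8) from 7 UMIs in WT and 30.8 CPM (23.6 to 39.6) from 61 UMIs in the NFKO-labelled library, where they stood 10.7-fold (7.52 to 15.1) above the other EEC-like cells. Cck-leading cells came next there at 8.68 CPM (5.98 to 12.2). In WT, Sst-leading cells came next at 9.11 CPM from 3 UMIs. The ratio at that step was 1.48 (0.338 to 8.87), so the first place in WT is not settled. By cluster the pattern was sharper. The cluster led by Nts and Adgrd1 had 58 Sstr2 UMIs in 36 of its 87 cells labelled NFKO, 44.5 CPM (33.8 to 57.5), and 3 UMIs in its 35 WT cells, 21.5 CPM (4.43 to 62.7). Nts-leading cells were also shallower in WT, with medians of 4914 and 16511 UMIs. A small cluster led by Pzp and Cck had 34 UMIs in 70 cells labelled NFKO, 22.1 CPM (15.3 to 30.9), and 1 UMI in 13 WT cells. These 2 clusters held 92 of 140 EEC-like Sstr2 UMIs in the NFKO-labelled library and 4 of 30 in WT, with 7.78% and 4.62% of the EEC-like cells. In the remaining EEC-like cells Sstr2 was at 1.81 CPM (1.33 to 2.40) against 2.33 CPM (1.52 to 3.42) in WT, a ratio of 0.775 (0.472 to 1.30). The class of the Nts-led cluster decided these values. Without doublet removal it merged into a cluster that was not named endocrine, and Sstr2 in Nts-leading cells labelled NFKO was then 3.65 CPM. The summed level of 8 goblet markers in EEC-like cells was 3312 CPM in WT and 5648 CPM in the NFKO-labelled library, with none at 0, and its part in the Sstr2 values was not tested.

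**Figure D4:**
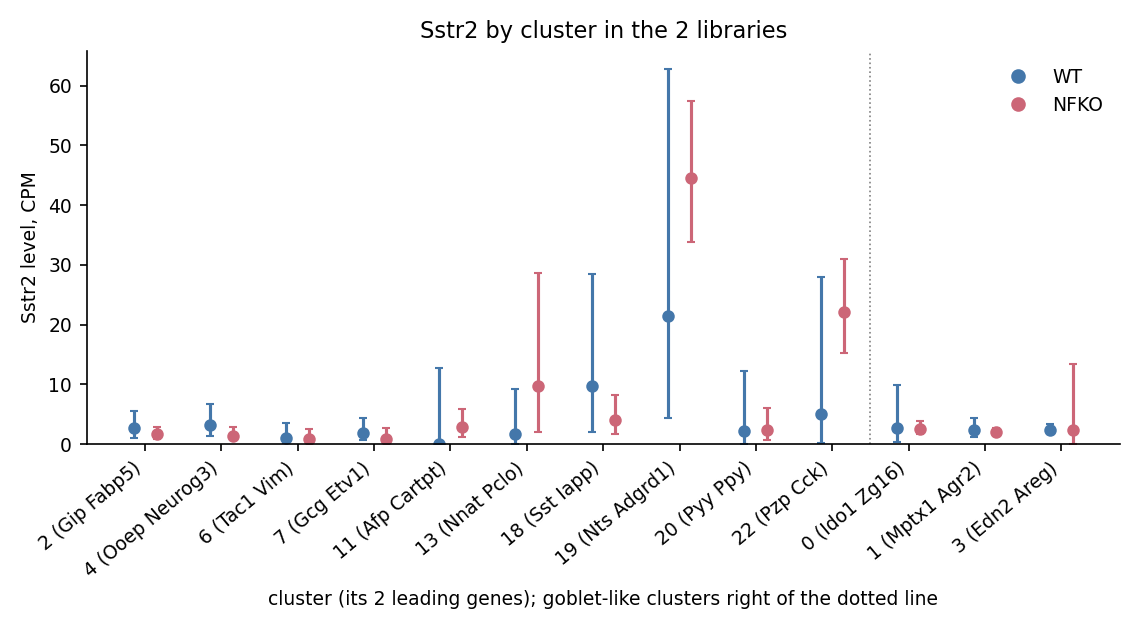
Sstr2 level in CPM by cluster in both libraries, with 95% counting intervals; EEC-like clusters are left of the dotted line, goblet-like clusters right of it, each named by number and its 2 leading genes. The Nts-led cluster (44.5 CPM) and the cluster led by Pzp and Cck (22.1 CPM) stand out in the NFKO-labelled library, while the goblet-like clusters lie between 2.04 and 2.75 CPM.

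D cells themselves carried Sstr1. Sst-leading cells had 25 Sstr1 UMIs in 16 of 39 WT cells and 88 in 48 of 94 cells labelled NFKO, at 76.0 CPM (49.2 to 112) and 58.9 CPM (47.2 to 72.5), a ratio of 0.775 (0.492 to 1.26). Sstr1 in all other EEC-like cells was at 29.2 CPM in WT and 58.9 CPM in the NFKO-labelled library. Sst-leading cells in WT exceeded these cells 2.60-fold (1.66 to 3.91), while in the NFKO-labelled library they did not differ from them detectably (1.00-fold, 0.798 to 1.24). Sstr2 and Sstr3 had 3 and 2 UMIs in WT and 7 each in the NFKO-labelled library. Sstr5 was 0.312-fold (0.178 to 0.509) of its level in the other EEC-like cells there, Sstr3 0.362-fold (0.144 to 0.753) and Sstr2 0.982-fold (0.387 to 2.08). In WT, Sstr5 was 0.193-fold (0.0232 to 0.701) and Sstr3 0.737-fold (0.088 to 2.74).

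At equal depth a receptor transcript was found in a minority of EEC-like cells. At 5000 UMIs per cell, 210 of 845 WT EEC-like cells had a UMI of any of the 4 receptors, or 24.9% (22.0% to 27.9%), and 640 of 1816 cells labelled NFKO, or 35.2% (33.0% to 37.5%). Unthinned, the shares of the same cells were 48.5% and 63.4%, and 193 and 201 shallower cells were left out. The thinned share of goblet-like cells was 1.80% and 1.48%. At least 2 receptors were seen in 26 and 123 EEC-like cells, or 3.08% and 6.77%. Tac1-low enterochromaffin cells had the highest share in the NFKO-labelled library, 71.3% (64.1% to 77.9%) of 178 cells, followed by Nts-leading (62.6% of 107) and Pyy-leading cells (59.0% of 39). Neurog3-positive cells had the lowest, 10.3% of 97 in WT and 12.0% of 192 in the NFKO-labelled library. Before thinning, 57 of the 101 EEC-like cells labelled NFKO with Sstr2 also had Sstr1, which is 56.4% of the Sstr2 cells and 7.89% of the Sstr1 cells. In WT 11 of 29 Sstr2 cells did. Deep cells are more likely to show any pair of transcripts, and this was not separated here.

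Between the libraries, 4 of the 5 genes were at least 1.5-fold higher in EEC-like cells of the NFKO-labelled library, beside 6.56% of all 12805 genes with at least 50 UMIs. Sstr1 was at 30.5 CPM from 351 UMIs in WT and 58.9 CPM from 1730 UMIs in the NFKO-labelled library, a ratio of 1.93 (1.72 to 2.17). Sstr2 was at 2.61 and 4.76 CPM with a ratio of 1.82 (1.22 to 2.80), which was 1.197 without doublet removal, and Sstr3 at 8.18 and 12.5 CPM with a ratio of 1.53 (1.22 to 1.94). Sstr5 was at 30.8 and 33.1 CPM, and its ratio of 1.07 had an interval that includes 1 (0.9497 to 1.22). No gene was at least 1.5-fold lower, beside 6.84% of all genes.

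The mix of hormone subtypes differed between the libraries and moved with these ratios. Tac1-low enterochromaffin cells, the subtype with most Sstr1, made up 1.54% of EEC-like cells in WT and 10.0% in the NFKO-labelled library, and Gcg-leading cells, with least Sstr1, 9.92% and 4.46%. When each subtype was given the share of UMIs it had in WT, the ratios were 1.52 for Sstr1, 1.43 for Sstr2, 1.41 for Sstr3 and 1.12 for Sstr5, so Sstr1 alone of the receptors was still at 1.5-fold. Within subtypes, the Sstr1 ratio was 1.99 (1.63 to 2.45) in Tac1-positive enterochromaffin, 1.91 (1.28 to 2.98) in Nts-leading, 1.61 (1.01 to 2.67) in Cck-leading and 1.48 (1.02 to 2.22) in Gip-leading cells. In Tac1-low enterochromaffin cells it was 0.998 (0.734 to 1.39). Sstr3 had a ratio of 1.70 (1.06 to 2.89) in Gip-leading cells and Sstr2 one of 2.28 (1.04 to 5.92) in Nts-leading cells. For each of these 2 receptors, this was the only interval among 11 subtypes that excluded 1. By the ratio alone, Sstr1 and Sstr3 were each higher in 8 subtypes and lower in 3. Sstr2 was higher in 4 and lower in 4, and the rest had no Sstr2 UMI in WT. Sstr5 ratios ran from 0.769 (0.525 to 1.14) in Ghrl-leading to 2.10 (0.966 to 5.19) in Neurog3-positive cells, and each of its intervals included 1. Whether a subtype differed from another in its ratio was not tested. Among male-typed EEC-like cells the ratios were 2.83 (2.33 to 3.43) for Sstr1, 1.32 (0.485 to 3.13) for Sstr2, 1.76 (1.11 to 2.72) for Sstr3 and 0.935 (0.694 to 1.24) for Sstr5.

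**Figure D5:**
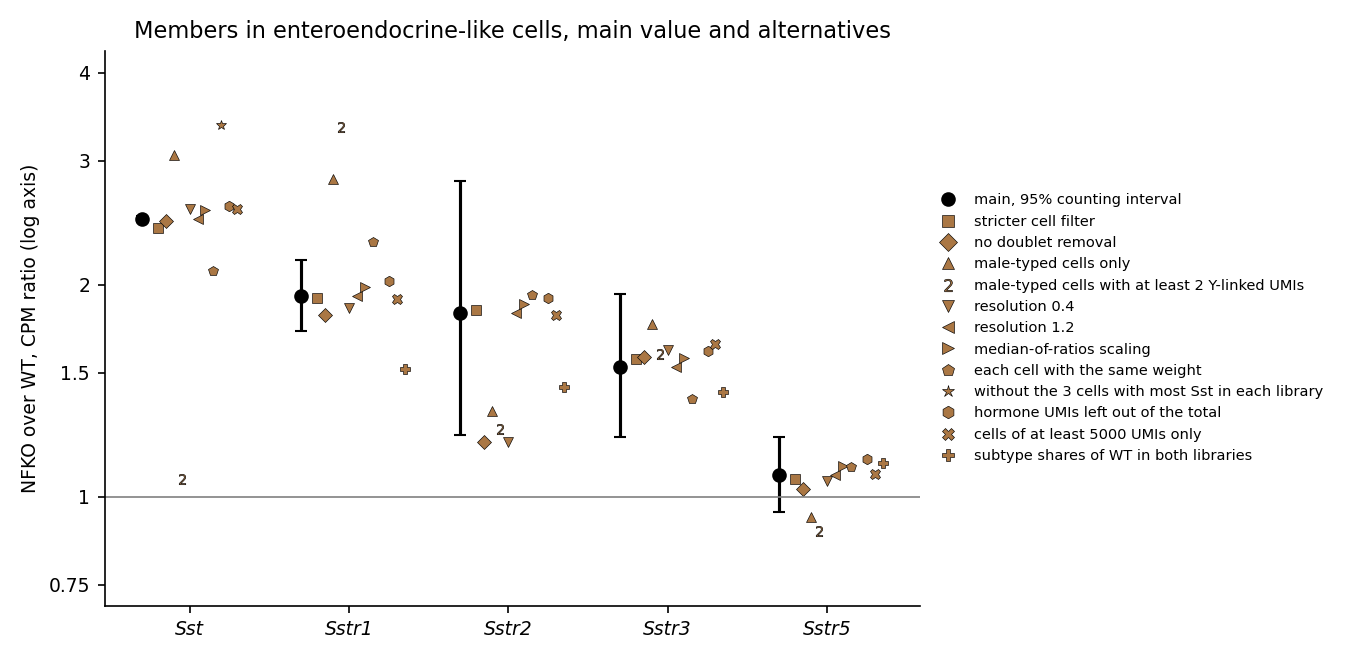
Ratio of the NFKO-labelled library over WT for each of the 5 genes in EEC-like cells on a log axis; black points are the values reported with 95% counting intervals and brown symbols the same ratio under other processing choices. Sst, Sstr1, Sstr2 and Sstr3 stay above 1 under each choice shown, Sst falling to 1.06 in the smallest male-typed set, and Sstr5 lies on either side of 1.

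Around the 5 genes, 85 genes of somatostatin processing, D cell identity and receptor signalling were counted in EEC-like cells. Of the 72 with at least 50 UMIs, 11 were at least 1.5-fold higher and 7 at least 1.5-fold lower in the NFKO-labelled library, or 15.3% and 9.72%, beside 6.56% and 6.84% of all genes, with a median log2 ratio of 0.01 beside -0.03. Among genes at 10 CPM or more in either library, the highest ratios were those of Glp1r (10.4 and 39.2 CPM, 3.76-fold, 3.11 to 4.57), Pdx1 (2.80-fold), Hhex (31.7 and 62.7 CPM, 1.98-fold, 1.77 to 2.22), Scg5, a granule protein (1.97-fold), and Pcsk1n, an inhibitor of prohormone convertase (1.69-fold). Each of these first 3 genes was also higher in the NFKO-labelled library among EEC-like cells that were not Sst-leading, as given above. The lowest under the same limit were Gnai1, a Gi subunit (111 and 66.1 CPM, 0.595-fold, 0.554 to 0.639), the transcription factors Etv1 (0.653-fold) and Rfx6 (0.666-fold), Gnao1, a Go subunit (0.712-fold), and Mnx1 (0.730-fold). The other Gi/o and coupling subunits, adenylyl cyclases and most channels that somatostatin receptors act on differed by less than 1.5-fold: 0 of 8 subunits, 0 of 5 cyclases and 1 of 10 channels (Kcnj5) were at least 1.5-fold higher. Of 10 genes listed for receptors known to act on D cells, Glp1r and Ramp1 were at least 1.5-fold higher. Ramp1 encodes an accessory protein of receptors and not a receptor. Adra2a (0.394-fold), Chrm3 (0.552-fold), Calcrl (0.606-fold) and Vipr1 (0.620-fold) were at least 1.5-fold lower, the last pair with intervals that include 1. Below 10 CPM in both libraries, Pcsk2 (2.67-fold), Ramp1 (2.58-fold) and Rgs16 (2.08-fold) also had ratios above that of Hhex.

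Some of these genes set Sst-leading cells apart within each library. The ones given here were chosen after their values were seen. Rgs4, a regulator that shortens Gi signalling, was at 957 and 832 CPM in Sst-leading cells against 79.7 and 127 CPM in the other EEC-like cells. Adra2a, an adrenergic receptor, was at 45.6 and 21.4 CPM against 8.60 and 2.87 CPM, and Calcrl, a receptor for CGRP-type peptides, at 30.4 and 10.0 CPM against 0.896 and 0.574 CPM. The potassium channel gene Kcnj3 was low, at 3.04 and 2.01 CPM against 39.7 and 42.9 CPM, as was the galanin receptor gene Galr1, with 0 and 3 UMIs against 41.4 and 42.6 CPM.

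The genes whose pattern was most like that of each member were found over 21 groups of subtype and library, as a Pearson correlation of log2(CPM + 1) among 11670 genes. For Sst they were Fam151a (r = 0.943), Iapp, Dab1, Rtp4 and Hhex (0.867), and for Sstr1 Trim15 (0.858), Ldha, Man1c1, Prag1 and Tbc1d13. For Sstr2 they were Sncg (0.810), Samd11, Casr, Orm3 and Angptl8, and for Sstr3 Slc6a7 (0.845), Cdh17, Dgkh, Hpgds and 2610035D17Rik. For Sstr5 they were Pepd (0.928), Fcna, Gp1bb, Mospd2 and Rasgrf2. Groups of 1 library share depth and free RNA, so these coefficients are descriptions.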

How the data were processed

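The 2 deposited matrices hold raw UMI counts per gene and barcode, made by the authors with Cell Ranger 5.0.1 on mm10 per the submitters' processing notes, with no normalization. The counts summed to 78424392 (WT) and 111522270 (NFKO) over the cells kept, of 5051 and 7540 barcodes. A barcode was dropped if it had under 500 genes, under 1000 UMIs or over 25% mitochondrial UMIs, which removed 38.1% and 25.3% of them. Scrublet's own threshold called 3 and 0 doublets, so the highest scores were removed at 0.8% per 1000 barcodes (126 and 340 cells). The libraries shared 6 barcodes, 4 among the cells kept.

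Cells were clustered with Seurat 5.3.0 (2000 variable genes, 30 components, 20 neighbours, resolution 0.8) after leaving out 16 genes, among them the 5 members, Foxo1 and the sex-linked genes. Clusters were named "-like" from marker lists. Of 23 clusters, 21 were named. Subtypes used limits set after the data were seen: a leading peptide hormone at 1% of UMIs, Tph1 at 0.05%, Tac1 at 0.1% and Neurog3 at 0.02%. Levels are summed UMIs per 1000000. Their 95% intervals are exact Poisson, those of shares Clopper-Pearson, and those of ratios binomial, conditional on the sum of both counts (scipy 1.17.1). They cover neither animals nor library preparation. Shares of cells were compared after thinning each cell to 5000 UMIs, leaving out shallower cells. Genes counted in a comparison had at least 50 UMIs over both libraries, and a gene was called at 1.5-fold, with no p-value. On simulated counts for the WT and NFKO libraries over 14600 genes, 95.5% of the intervals held the true ratio and 200 of 200 genes changed 3-fold were called. The counts were drawn from the Poisson model that the intervals assume, so this checks the calculation only. It does not show that the intervals hold where a few cells carry most UMIs, as for Sst.

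The members and lists were chosen with earlier results of these data known. Besides the members, genes were named if they had the 5 highest or 5 lowest ratios of the pathway list among genes at 10 CPM or more in either library, the 5 patterns most like a member's, or the 10 largest concentrations in Sst-leading cells. Any other gene named was chosen after its values were seen.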

Additional observations from a re-analysis of the deposited data

How the results depend on the processing

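Of 118 alternative values, 37 moved beyond the counting interval (gene counts: beyond 1.5 times) and 81 did not. The direction turned for 2 ratios whose intervals include 1: the share of Sst-leading cells and Sstr5, both given below. No paired analysis was possible because each group has 1 library, and no replicate could be left out. The cause of a shift was not tested unless stated. The EEC Sst ratio of 2.48 was 2.41 with stricter cell filters, 3.06 in male-typed cells, 2.56 at resolution 0.4, 2.55 with median-of-ratios scaling, 2.09 with each cell weighted alike and 3.38 without the 3 cells with most Sst in each library. The Sst level per Sst-leading cell (1.36) was 1.32 without doublet removal, 1.45 in male-typed cells, 1.54 with median-of-ratios scaling, 1.65 with equal weights, and 1.31 and 1.38 with the leading level multiplied or divided by 2. The Sstr1 ratio (1.93) was 2.83 in male-typed cells and 2.30 with equal weights, and that of Sstr5 (1.07) was 0.935 in male-typed cells.

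The Sstr2 ratio (1.82) was 1.197 without doublet removal and 1.196 at resolution 0.4, and without doublet removal Sstr2 in Nts-leading NFKO cells was 3.65 in place of 30.8 CPM and Sstr3 in Nts-leading WT cells 4.47 in place of 19.3 CPM. In both settings the Nts-led cluster of 122 cells merged into a shallow cluster, of 207 and 180 cells, that lost its endocrine name, so its cells left the EEC-like class. Sstr1 in Tac1-low enterochromaffin NFKO cells (284.8 CPM) was 322 and 243 CPM with the leading level multiplied or divided by 2. The shares of cells with a receptor UMI (24.9% and 35.2%) were 43.6% and 59.8% unthinned and 12.5% and 20.1% at 2000 UMIs, as fewer UMIs show fewer transcripts. Sst outside EEC-like cells was 5.95 and 51.3 CPM without the 3 cells with most Sst in each class.

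Alternatives added after seeing the data gave, for the Sst ratio, 2.59 with hormone UMIs left out of the total, 2.57 in cells of at least 5000 UMIs and 1.06 in cells with at least 2 Y-linked UMIs, and for Sst per Sst-leading cell 1.42, 1.23 and 1.24. With at least 2 Y-linked UMIs the ratios were 0.565 for the share of Sst-leading cells, 3.35 for Sstr1 and 0.894 for Sstr5, and Sstr1 was 1.52 with the subtype shares of WT. The share ratio of 1.24 was 1.82 in cells of at least 5000 UMIs.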

Other observations

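Among droplets removed by the filters, Sst made up at least 1% of UMIs in 8 of 1922 (0.416%) in WT and 19 of 1908 (0.996%) in the NFKO-labelled library. These droplets enter no comparison. Of the EEC-like cells led by another hormone, those led by Gip, Cck and Ghrl had Sst at 13.0, 10.4 and 6.52 CPM in WT and at 738, 793 and 269 CPM in the NFKO-labelled library. There the 3 cells with most Sst held 81.9%, 94.6% and 81.0% of these UMIs, and without them the levels were 135, 43.9 and 52.2 CPM, beside 47.6 CPM in goblet-like cells after the same step. At 5000 UMIs per cell, a Sst UMI was found in 27.5% (23.0% to 32.4%) of Gip-leading cells of that library, beside 24.2% (21.8% to 26.6%) of goblet-like cells, so a few cells carried the higher level. Of the Gip-leading cells there, 4 had Sst at 1% of UMIs or more, and 1 of them remained after this step. At the same depth, 39.9% (32.6% to 47.5%) of Tac1-low and 36.5% (30.4% to 42.9%) of Tac1-positive enterochromaffin cells of that library had a Sst UMI. Both intervals lay above that of goblet-like cells. Unthinned, none of these cells held more than 5 Sst UMIs, so the excess was not due to a few cells. They were shallower, however, with medians of 9908 and 12248.5 UMIs against 21729 in goblet-like cells. The unthinned shares were 62.4% (55.3% to 69.1%) and 62.5% (56.5% to 68.3%), beside 57.8% (55.3% to 60.2%) of goblet-like cells. The part that depth has in the excess was not tested. Apart from Sst-leading cells, the intervals of the other subtypes overlapped the goblet-like one. The cause was not tested.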
